A study of Mus musculus with 26 samples.

Results

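Tcf15 is a mouse gene for a basic helix-loop-helix transcription factor, and the open chromatin around it was followed across 26 ATAC-seq libraries of pluripotent cells. The gene spans positions 152143056 to 152149097 of chromosome 2 in GRCm38, a span of 6042 bp. Its peaks were chosen by position: every peak of the 26 deposited lists that overlapped this span or the 50 kb on either side of it, positions 152093056 to 152199097, was kept. This gave 96 peaks of 451563 in all lists. Merged where they overlapped or touched, they formed 10 regions of 75600 in the whole series, numbered R1 to R10 here by coordinate. The gene itself was picked with its pattern known, a peak at a gene end in FS lists and in no ES list, so the levels below are a description and carry no test.

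ATAC-seq marks open chromatin through the Tn5 transposase, which inserts sequencing adapters into accessible DNA. Each library began with 50000 cells. In the first set, ES were naive embryonic stem cells at passage 16 in the medium named 2iL, and FS1 (passage 21) and FS2 (passage 29) were formative stem cells in the medium named A3XR. EpiSC_AF (passage 22) were epiblast stem cells in AF, and EpiSC_AFX1 (passage 14) and EpiSC_AFX2 (passage 16) were epiblast stem cells in AFX. Each of these 6 groups had 3 libraries. In the second set, Rd2_ES (passage 33, 2 libraries, in 2iL) and Rd2_AFX (passage 16, 2 libraries, in AFX) stood beside Rd2_EpiLC (4 libraries), which were epiblast-like cells made from ES cells over 2 days in AF with KSR and then sorted for low GFP. The source names of the Rd2 ES cells carry GFP as well. FS below joins FS1 and FS2, and EpiSC_AFX joins EpiSC_AFX1 and EpiSC_AFX2. Libraries are numbered within each group, but no label ties a number to its own culture, so their spread may be technical.

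Helix-loop-helix factors of this class bind the E-box as dimers with the widely expressed E proteins, and Id proteins block them by taking the E proteins away. Tcf15, also called paraxis, is best known for its part in forming epithelial somites from paraxial mesoderm. In embryonic stem cells it has been linked to the step in which naive cells become primed for differentiation. Formative cells lie between naive ES cells and primed EpiSC on that path. Open chromatin at a gene does not measure its transcript.

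The depth of each library was unknown, since the lists hold peaks and not reads, and the length of a list was the nearest stand-in. The first-set ES lists were the shortest of their set, with 8044 to 10961 peaks, against 23883 to 31263 in FS1, 11796 to 14147 in FS2, 15505 to 24824 in EpiSC_AF, 17701 to 27485 in EpiSC_AFX1 and 25641 to 29575 in EpiSC_AFX2. The Rd2_ES lists held 471 and 2576 peaks, Rd2_EpiLC between 7469 and 26045, and Rd2_AFX 11252 and 10719. A region missing from a short list may therefore lie below that list's threshold. For this reason presence is given with the lists as deposited and again at equal list length, that is, with the 8044 strongest peaks by −log10 p of each first-set list. The labelled cell states were only partly marked by peaks near gene ends (within 1 kb). Of 8 naive markers, 1 (Zfp42) had such a peak in all 3 ES libraries and no FS library. At equal list length 2 did (Zfp42 and Tbx3). No share over all genes was taken in this direction, so these counts do not set the naive markers apart. With the lists as deposited Tfcp2l1 went the other way, at 0 of 3 in ES and 5 of 6 in FS. Nanog and Klf4 were each at 2 of 3 and 4 of 6, the same share. Tbx3 was at 3 of 3 and 4 of 6, and Klf2 at 3 of 3 and 5 of 6. Esrrb and Dppa3 had none in either. Of 6 formative markers, 0 had a peak in every FS and no ES library, where 3.41% of all protein-coding genes did. The count was also 0 at equal list length (0.882% of genes). With the lists as deposited Dnmt3b came nearest, at 5 of 6 in FS, whereas Otx2 was at 1 of 6 and Sox3 at 2 of 6. Pou3f1 and Etv4 were open in 1 and 2 of the ES libraries as well. Of 6 primed markers, 2 (Foxa2 and Fgf8) had one in every library of both EpiSC types and in no ES library. Over all genes 9.89% did so for EpiSC_AFX and 9.77% for EpiSC_AF. Eomes was at 2 of 3 in ES, T at 3 of 6 in EpiSC_AFX, and Cer1 and Lefty2 at 0 of 6 there. At equal list length 0 met this rule for EpiSC_AFX (1.34% of genes) and 1 (Fgf8) for EpiSC_AF (2.5%). Of 4 fibroblast markers that feeder cells would bring (Col1a1, Col1a2, Thy1, Pdgfrb), none had such a peak in ES. In every EpiSC_AFX library 3 of the 4 had one. Of all protein-coding genes, 9.89% had one in every EpiSC_AFX and no ES library. Thy1 and Pdgfrb each had one in 5 of 6 FS libraries. At equal list length 0 of the 4 had a peak in every EpiSC_AFX library and no ES library, where 1.34% of all genes did. The part of feeder cells in the values below was not tested.

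The window held 6 annotated genes. From low to high coordinate they were Scrt2 (a zinc finger factor of neurons), the long non-coding RNA Gm31475, Srxn1 (sulfiredoxin, which restores oxidised peroxiredoxins), the long non-coding RNA Gm31535, Tcf15 and the ribosomal protein pseudogene Rps15a-ps7. Srxn1 lay 31.7 kb below Tcf15, at 152105524 to 152111376, and Gm31535 only 0.306 kb below it, at 152139834 to 152142750. The gene table gives whole spans, so exons and introns were not told apart here.

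Promoter sequences in the RefSeq table (GRCm38.p6) matched 2 of the 6 genes, Srxn1 and Gm31535, the latter with 2 starts. The stretches shown are the pair that R2 and R5 mostly cover; that of the other Gm31535 start, chr2:152141243-152141492, overlapped no region and is not printed. Srxn1, chr2:152105274-152105523, plus strand, is the stretch of 250 bases before the gene's start, of which 201 lie inside R2. Gm31535, chr2:152141983-152142232, plus strand, is the same stretch before the second of its annotated starts, of which 197 lie inside R5. Capitals mark matches to TGANTCA, the AP-1 site, in the first sequence and to GGGCGG, the GC box, on either strand in the second.
Srxn1: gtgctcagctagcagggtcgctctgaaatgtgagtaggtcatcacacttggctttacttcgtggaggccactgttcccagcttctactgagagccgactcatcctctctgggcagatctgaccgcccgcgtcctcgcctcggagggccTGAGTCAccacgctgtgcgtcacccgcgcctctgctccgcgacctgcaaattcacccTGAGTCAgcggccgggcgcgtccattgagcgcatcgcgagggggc
Gm31535: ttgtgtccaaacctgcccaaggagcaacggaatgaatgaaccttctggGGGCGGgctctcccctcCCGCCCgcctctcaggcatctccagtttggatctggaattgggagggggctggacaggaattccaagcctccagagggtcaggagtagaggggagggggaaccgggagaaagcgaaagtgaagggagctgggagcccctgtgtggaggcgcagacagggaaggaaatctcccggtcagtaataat

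The Srxn1 stretch had a GC content of 63.2% and the Gm31535 stretch 59.2%, against a median of 52.4% over 32851 promoters of the same length. TGANTCA occurred at 2 places in the Srxn1 stretch, beginning 102 and 45 bases before the start, and 6.75% of all promoters held at least 1 match. This motif was chosen after the sequence had been seen. Srxn1 also held 1 E-box (CANNTG, in 66.2% of promoters), 206 bases before its start, and 1 GC box (in 32.7%), 129 bases before it. The Gm31535 stretch held GC boxes 202 and 185 bases before its start, 1 CCAAT (in 33.8% of promoters) and 1 GGAATG, the TEAD site (in 12.6%). No match to CANNTG was found in it, whereas the stretch before the other Gm31535 start held 1, at 41 bases before that start. The octamer ATGCAAAT (1.6% of promoters), TATAAA (12.4%) and the ETS core CCGGAAG (6.91%) were found in neither. Both strands were searched, and a match is only a run of letters in this window.

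The region inside the Tcf15 span, R6, was found at 152143332 to 152143760, close to the lower-coordinate end of the gene, and was 429 bp wide. A peak lay there in 19 of 26 lists. These peaks were 206 to 383 bp wide, with a median of 283 bp, and began 276 to 332 bp inside the gene span, so that the libraries placed the open site at nearly the same position. Within its list a peak was given a percentile rank, its rank by −log10 p from the weakest up, ties averaged, as a percent of list length. In FS1 the ranks were 80.1, 81.5 and 89.1, all near the top of their lists. In FS2 the first library had no peak, and the others ranked at 28.1 and 31.1, well below the middle of theirs. In EpiSC_AF the ranks were 87, 87.3 and 92.5. EpiSC_AFX1 gave 81.3, 86.8 and 90.8, and EpiSC_AFX2 gave 90, 86.4 and 94.9, the last being the highest rank of any peak in the window. No ES library of the first set had a peak there, nor did either Rd2_ES library. In Rd2_EpiLC 3 of 4 libraries had one, at ranks of 84.4, 85.4 and 70.4, and the library without it, number 3, had the shortest list of its group. Both Rd2_AFX libraries had one, at 65 and 84.

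**Figure D1:**
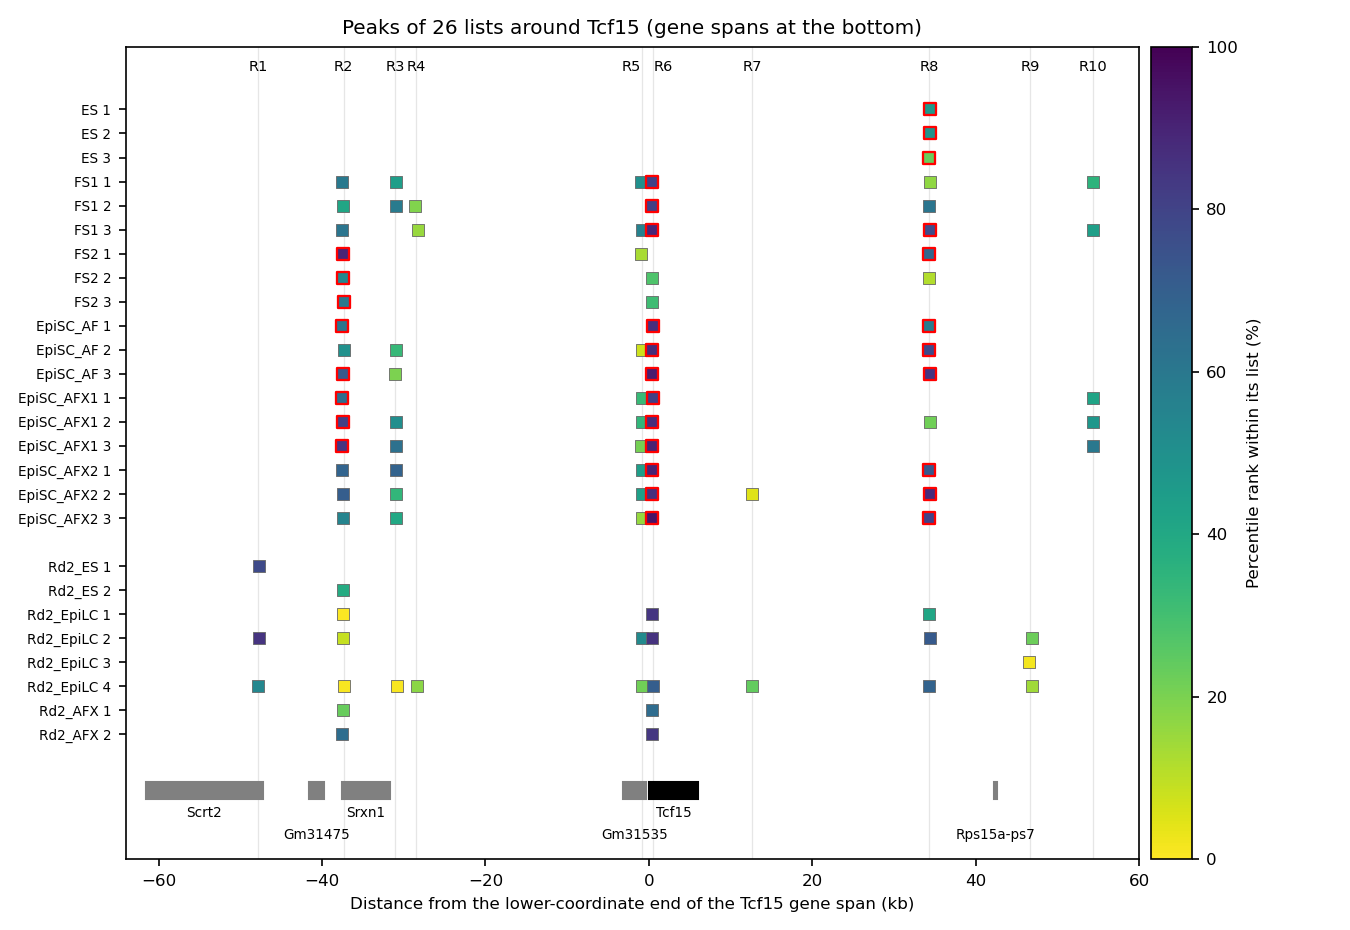
Each square is a peak, placed by its distance in kb from the lower-coordinate end of Tcf15 (x axis) and by library (y axis), coloured by its percentile rank within its list; red outlines mark peaks kept at equal list length in the first set, and bars at the bottom are gene spans. R6 inside Tcf15 is dark in FS1, EpiSC_AF, EpiSC_AFX1 and EpiSC_AFX2 and absent from ES, whose only square in each of 3 libraries lies at R8.

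The authors' fold enrichment of the R6 peak, a value that belongs to each list, ran from 5.45 to 6.98 in FS1 and was 3.71 and 3.42 in the 2 FS2 libraries that had it. It ran from 6.52 to 7.78 in EpiSC_AF and from 5.4 to 7.53 over the 6 EpiSC_AFX libraries. The −log10 q was at least 6.25 in every FS1 peak and 1.93 and 1.95 in the FS2 peaks. In the Rd2 set the −log10 q was 4.18, 5.4 and 3.82 in Rd2_EpiLC and 3.1 and 4.11 in Rd2_AFX.

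At one common length the first-set lists kept R6 in 3 of 3 libraries of FS1, EpiSC_AF, EpiSC_AFX1 and EpiSC_AFX2 and in 0 of 3 of FS2 and ES. The peaks lost were those of FS2, which stood 8482nd and 8927th from the top of their lists, just past the limit of 8044. The FS libraries were thus split by line at the gene itself: R6 was held by every FS1 and no FS2 library, as were 2.61% of the 15884 regions of FS1 and FS2 at this length. With the lists as deposited no window region was held by every library of one line and by none of the other (7.31% of 43708 regions for FS1, 0.0686% for FS2).

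**Figure D2:**
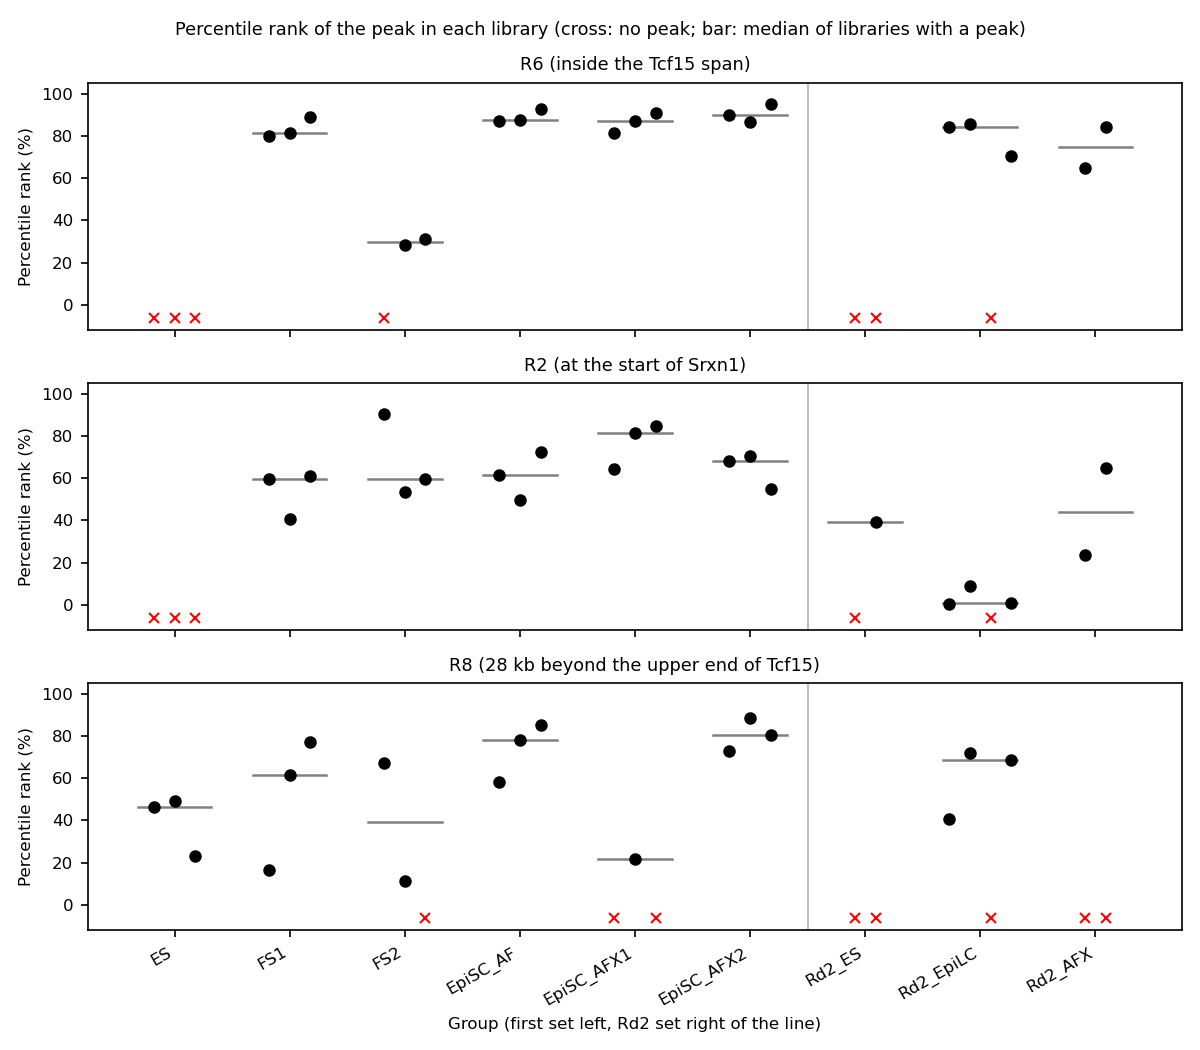
Percentile rank in % (y axis) of the peak in R6, R2 and R8 for each library, by group (x axis); dots are libraries, crosses below 0 are libraries without a peak, and grey bars are medians of the libraries with one. At R6 the FS2 dots, 28.1 and 31.1, lie below all other dots, and ES has crosses only, whereas at R8 the ES libraries have dots at 46.3, 49.2 and 23.

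Below the gene, R5 lay 0.672 kb from its lower end, at 152142036 to 152142384, inside the span of Gm31535 and over the promoter stretch printed above. It was 349 bp wide and was held by 12 lists. All 6 EpiSC_AFX libraries had it, at ranks of 32.5, 34.2 and 20.9 in EpiSC_AFX1 and 44.2, 43.4 and 15.8 in EpiSC_AFX2. In FS1 libraries 1 and 3 had it, at 50 and 56.2. In FS2 only library 1 did, at 13.1, and in EpiSC_AF only library 2, at 7.58. No ES library had it, and in Rd2_EpiLC it was found in libraries 2 and 4, at 52.7 and 21.7. All of these ranks were lower than that of R6 in the same library, except in the first FS2 library, which had R5 and no R6. No R5 peak was kept at equal list length. A peak within 1 kb of either end of Tcf15 was therefore counted in 6 of 6 FS libraries through R6 in 5 of them and through R5 alone in the other.

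**Figure D3:**
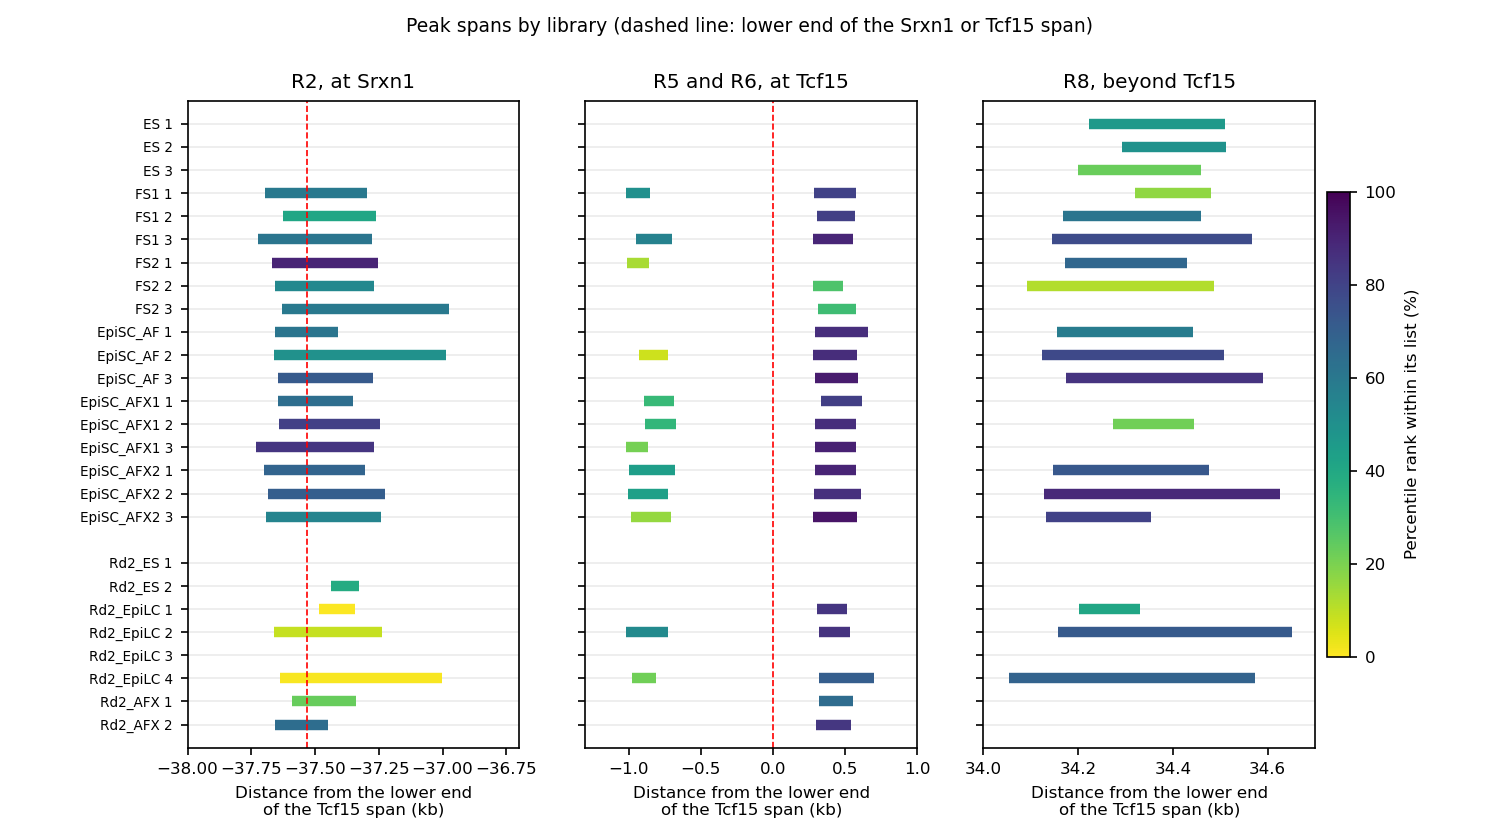
Spans of the peaks of R2, of R5 and R6, and of R8 in each library, as distance in kb from the lower end of Tcf15 (x axes), coloured by percentile rank; dashed lines mark the lower end of the Srxn1 span (left) and of the Tcf15 span (middle). The R6 bars start at nearly one position in all 19 libraries that have them, and the R5 bars lie outside the Tcf15 span.

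At the start of Srxn1, 37 kb below Tcf15, R2 ran from 152105323 to 152106082 (760 bp) and took in the gene's start. It was found in 21 lists, the highest number for any of the 10 regions. Ranks were 59.4, 40.8 and 61.2 in FS1 and 90.2, 53.3 and 59.4 in FS2, so that here, unlike at R6, the lines overlapped. They were 61.3, 49.8 and 72.2 in EpiSC_AF, 64.4, 81.2 and 84.7 in EpiSC_AFX1, and 68, 70.5 and 54.7 in EpiSC_AFX2. No first-set ES library had it. In the Rd2 set it was found in the second Rd2_ES library, at 39, in both Rd2_AFX libraries, at 23.4 and 64.8, and in 3 Rd2_EpiLC libraries at only 0.454, 8.95 and 0.906, among the weakest peaks of those lists. With equal lists R2 was held by 3 of 3 FS2, 3 of 3 EpiSC_AFX1 and 2 of 3 EpiSC_AF libraries and by 0 of 3 FS1 and 0 of 3 EpiSC_AFX2 libraries. At this length it was thus held by FS2 and not FS1 (1.49% of regions were), the reverse of R6. The FS1 peaks lost stood at places 10730, 14136 and 12119 from the top of their longer lists. Their −log10 q was 3.74, 3.13 and 4.32, against 5.87, 2.66 and 2.94 for the FS2 peaks kept. A line difference at R2 therefore cannot be told apart from list length.

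The region R8 lay 28 kb above the upper end of Tcf15, at 152177109 to 152177708 (600 bp), in no gene span and 7547 bp from the nearest one, that of Rps15a-ps7. It was the only region of the window that first-set ES libraries had, at ranks of 46.3, 49.2 and 23. FS1 had it at 16.6, 61.3 and 77, and FS2 at 67.1 and 11.4, with no peak in library 3. EpiSC_AF had it at 58.3, 77.8 and 84.9 and EpiSC_AFX2 at 72.8, 88.4 and 80.4. EpiSC_AFX1 had it in the second library only, at 21.7. In Rd2_EpiLC it ranked at 40.7, 71.9 and 68.7 in libraries 1, 2 and 4, and neither Rd2_AFX nor Rd2_ES had it. With equal lists it was held by 3 of 3 ES, 3 of 3 EpiSC_AF and 3 of 3 EpiSC_AFX2 libraries, by 1 of 3 in each FS line and by 0 of 3 in EpiSC_AFX1. Ranked by fold at that length, R8 was held by 2 of 3 ES and 3 of 6 FS libraries. With a −log10 q of at least 5 it was held by 0 of 3 ES and 1 of 6 FS libraries. By that limit EpiSC_AF had it in 2 of 3, EpiSC_AFX2 in 3 of 3 and EpiSC_AFX1 in 0 of 3.

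The other 6 regions were weaker or rarer, and none of them was kept in any first-set library at equal list length. R3, 360 bp past the upper end of Srxn1 and 30.8 kb from Tcf15 (563 bp), was held by 2 of 3 FS1, 0 of 3 FS2, 2 of 3 EpiSC_AF, 2 of 3 EpiSC_AFX1, 3 of 3 EpiSC_AFX2 and 1 of 4 Rd2_EpiLC libraries, at ranks of 0.91 to 68.4. R4 (782 bp, 28.1 kb below) was held by FS1 libraries 2 and 3, at 18.8 and 15.5, and by Rd2_EpiLC library 4, at 17.5. R7 (265 bp, 6.45 kb above) was held by EpiSC_AFX2 library 2, at 4.79, and by Rd2_EpiLC library 4, at 24. R10 (270 bp, 48.2 kb above) was held by all 3 EpiSC_AFX1 libraries, at 41.5, 47 and 60.1, by FS1 libraries 1 and 3, at 35.2 and 44, and by no other.

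A pair of regions was seen in the Rd2 set only. R1 (551 bp, 47.5 kb below, inside the Scrt2 span) was held by Rd2_EpiLC libraries 2 and 4, at 85.1 and 53.7, and by the first Rd2_ES library, at 77.5 of a list of 471 peaks. R9 (768 bp, 40.3 kb above) was held by 3 of 4 Rd2_EpiLC libraries, at 22.6, 1.75 and 14.2. The lists of the sets were made differently, with a shortest peak of 150 bp in the first and 110 bp in the second, so presence in one set and not in the other cannot be told apart from that processing. When the Rd2_EpiLC and Rd2_AFX lists were brought to 7469 peaks each, R6 was held by 2 of 4 Rd2_EpiLC and 2 of 2 Rd2_AFX libraries, R8 by 2 of 4 and 0 of 2, and R2 by 0 of 4 and 1 of 2.

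**Figure D4:**
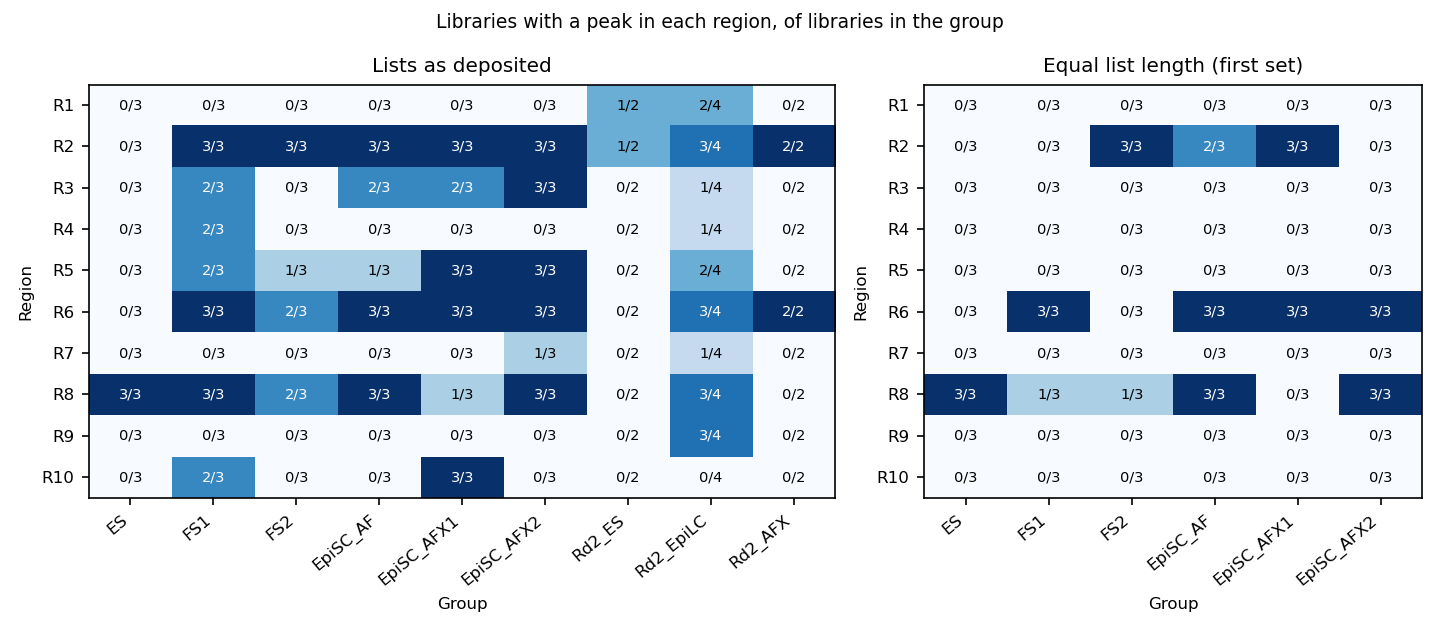
Number of libraries with a peak in each region (rows) of all libraries in the group (columns), with the lists as deposited (left) and at equal list length in the first set (right); darker blue is a larger share. Of 10 regions, R2, R6 and R8 keep any peak at equal list length, R6 in FS1 and all EpiSC groups, R2 in FS2, EpiSC_AF and EpiSC_AFX1, and R8 in ES and 4 other groups.

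Cell types were then compared by a fixed rule, under which a region is called when every library of one type and no library of the other holds it. Regions were rebuilt from the libraries compared. Against ES, 1 of 7 window regions was held by all 6 FS libraries and by no ES library, and it was R2 at Srxn1, not R6; 2.89% of all 48431 regions met this rule. For EpiSC_AFX, 3 of 7 did (R2, R5 and R6), against 8.18% of 51601. For EpiSC_AF, 2 of 5 did (R2 and R6), against 12.4% of 36589. In the opposite direction 0 window regions were held by ES alone, against 0.506% of all regions for FS, 0.492% for EpiSC_AFX and 0.847% for EpiSC_AF. The ES lists were the shortest, which moves both directions of this count. The 3 comparisons share the ES libraries, and the gene was chosen for its difference from ES, so nothing about Tcf15 is read from these shares.

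At equal list length 0 of 3 window regions were held by FS and not ES (1.69% of all regions), since FS1 lacked R2 and FS2 lacked R6. R6 was the 1 region of 3 held by EpiSC_AFX and not ES (2.59%) and also the 1 of 3 held by EpiSC_AF and not ES (5.59%). The formative and primed types were not separated by any window region with the lists as deposited. For FS against EpiSC_AFX 0 of 8 regions were called, where the shares over all regions were 0.0252% for FS and 0.0755% for EpiSC_AFX. For FS against EpiSC_AF 0 of 7 were called (0.141% and 0.305%), and for EpiSC_AF against EpiSC_AFX 0 of 7 (0.109% and 0.268%). At such shares fewer than 1 called region would be met among 7 or 8.

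The AFX lines differed from each other away from the gene. With the lists as deposited, R10 was held by every EpiSC_AFX1 and no EpiSC_AFX2 library, as were 0.519% of 46801 regions. At equal list length, R2 was held by EpiSC_AFX1 alone (1.85% of 14030 regions) and R8 by EpiSC_AFX2 alone (2.4%). The R2 peaks lost from EpiSC_AFX2 stood at places 8213, 8725 and 11768 from the top, and with a −log10 q of at least 5 R2 was held by 2 of 3 libraries of each line. R6 was held by all 6 libraries of both lines in either setting.

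Counted per library, the window held 6, 5 and 6 peaks in FS1 and 3, 3 and 2 in FS2. It held 3, 5 and 4 in EpiSC_AF, 4, 6 and 5 in EpiSC_AFX1 and 5, 6 and 5 in EpiSC_AFX2. Each ES library held 1. The mean was 4.17 ± 1.72 in FS (SD, n = 6), 5.17 ± 0.753 in EpiSC_AFX (n = 6), 4 ± 1 in EpiSC_AF (n = 3) and 1 ± 0 in ES (n = 3). Every FS and EpiSC library was above every ES library, by a mean of 3.17 peaks for FS, 4.17 for EpiSC_AFX and 3 for EpiSC_AF. Such windows were common: among those of all 21883 protein-coding genes, 16.3% had every FS library above every ES library, 38.9% every EpiSC_AFX library and 34.9% every EpiSC_AF library. FS and the EpiSC types overlapped. In the Rd2 set the counts were 1 and 1 in Rd2_ES, 3, 6, 1 and 9 in Rd2_EpiLC and 2 and 2 in Rd2_AFX, and the Rd2_EpiLC counts were in the order of their list lengths.

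The differences were smaller once the lists were of one length. The window then held 1, 1 and 2 peaks in FS1, 2, 1 and 1 in FS2, 3, 2 and 3 in EpiSC_AF, 2 in each EpiSC_AFX library and 1 in each ES library. The mean difference from ES was 0.333 for FS, whose libraries overlapped those of ES, 1 for EpiSC_AFX and 1.67 for EpiSC_AF. No share of gene windows was taken at this length, so these differences do not set Tcf15 apart from other genes. The counts with the lists as deposited were also set beside windows of the same flanks around all 21883 protein-coding genes in the same library. In first-set ES, 36 to 45.2% of genes had fewer peaks than Tcf15. The share was 77.5 to 84.5% in FS1, 54.3 to 76% in FS2, 68.3 to 82.4% in EpiSC_AF, 72.9 to 87.2% in EpiSC_AFX1 and 76.7 to 82% in EpiSC_AFX2. In Rd2_EpiLC it ran from 43.3 to 97.4%, and in Rd2_AFX it was 57.8 and 60%. In Rd2_ES it was 95.1 and 73.1%, where 1 peak stood against a median of 0.

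The window's edges fell in empty stretches. Its outermost regions lay 47.5 kb below and 48.2 kb above the gene. The nearest regions beyond were 60.4 kb below, in the Scrt2 span, and 77.4 kb above, at the lower end of Csnk2a1 (a catalytic subunit of casein kinase 2). The Csnk2a1 region was held by all 15 FS and EpiSC libraries of the first set and by 0 of 3 ES libraries. With equal lists it was kept in 0 of 3 FS1, 1 of 3 FS2, 3 of 3 EpiSC_AF, 0 of 3 EpiSC_AFX1 and 3 of 3 EpiSC_AFX2 libraries. The Scrt2 region was held by the same 15 libraries and by 1 of 3 ES libraries.

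The gene-end rule asks for a peak no more than 1 kb from either end of a gene, present throughout a cell type and absent from ES. By it Tcf15 was called for FS with 3.41% of protein-coding genes, for EpiSC_AFX with 9.89% and for EpiSC_AF with 9.77%. It was 1 of 543 genes called for all 3 types (2.48%). With equal lists it was still called for EpiSC_AFX (1.34% of genes) and EpiSC_AF (2.5%) and no longer for FS (0.882%).

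The partners and inhibitors of Tcf15, related genes of its class, somite genes and formative genes were read by the same rule. Of 35 listed genes, 0 were called for FS against ES (3.41% of all genes were), 6 for EpiSC_AFX (9.89%) and 7 for EpiSC_AF (9.77%). With so few genes, a count of 0 for FS does not set them apart from genes in general. Among the E proteins Tcf3, Tcf4 and Tcf12, with which Tcf15 pairs, 0 of 3 were called for FS; Tcf3 had a gene-end peak in 4 of 6 FS and 0 of 3 ES libraries and was called for both EpiSC types. Tcf12 had one in 6 of 6 FS and 1 of 3 ES libraries. Of the 4 Id genes, 0 were called for FS, 1 (Id1) for EpiSC_AFX and 1 (Id3) for EpiSC_AF. Id1 had a peak in all FS1 and no FS2 library, Id3 in 2 of 3 of each line, and Id2 and Id4 in all 6 FS and 2 of 3 ES libraries. Of the 10 related tissue-specific genes of the class, 4 had no gene-end peak in any first-set library, and all 10 had none at equal list length. Of 21883 protein-coding genes, 7234 had none in any of the 26 lists. No share over all genes was taken for the first set alone, so these counts do not set the class apart. Among the 10, Tcf21 had a peak in 3 of 3 EpiSC_AF libraries and was called for that type alone.

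Of 9 somite and paraxial mesoderm genes, which are active where Tcf15 has its best-known role, 0 were called for any type (3.41 to 9.89% of all genes were). In the first set 3 of the 9 had no gene-end peak. Over all 26 lists, not the first set alone, 7234 of 21883 protein-coding genes had none, so these counts are not like for like. Tbx18 had one in 6 of 6 FS and 1 of 3 ES libraries. Of 9 formative genes 0 were called for FS, and 4 (Fgf5, Dnmt3b, Sox3 and Lef1) were called for EpiSC_AFX and EpiSC_AF, where the shares over all genes were 9.89% and 9.77%. Fgf5, a growth factor of the early postimplantation epiblast, had a peak in 3 of 3 FS1 and 1 of 3 FS2 libraries. Etv5, an ETS factor downstream of FGF signalling, had one in every first-set library. These genes are named beyond the rule fixed for FS, after their values were seen. Dnmt3b, a de novo DNA methyltransferase, was at equal list length the 1 of 35 listed genes still called for EpiSC_AFX and for EpiSC_AF. Over all genes 1.34% were called for EpiSC_AFX and 2.5% for EpiSC_AF at that length, so a count of 1 does not set the listed genes apart.

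Genes with the pattern most like that of Tcf15 were found by the mean absolute difference, over the 26 lists, in the rank of the best gene-end peak, taken as 0 where there was none. This difference had a median of 48.7 percentage points and a 5th percentile of 17.6 over 21882 other protein-coding genes. The closest were Exoc3l (6.66), 4931428F04Rik (6.88), Ap1s3 (6.99), Crmp1 (7.13) and Tmem221 (7.52). Exoc3l and 4931428F04Rik are neighbours on chromosome 8 and share peaks, so they are not separate cases. Crmp1 had a gene-end peak in the same libraries as Tcf15 in 26 of 26 lists. Its best rank was 73.9 to 91 in FS1 and 16.5 to 37.3 in FS2, and no ES library had a peak. Ap1s3 matched in 25 of 26, with 81.2 to 87.5 in FS1 and 21.5 to 34.9 in FS2. All of these ranks share libraries and list lengths with Tcf15.

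**Figure D5:**
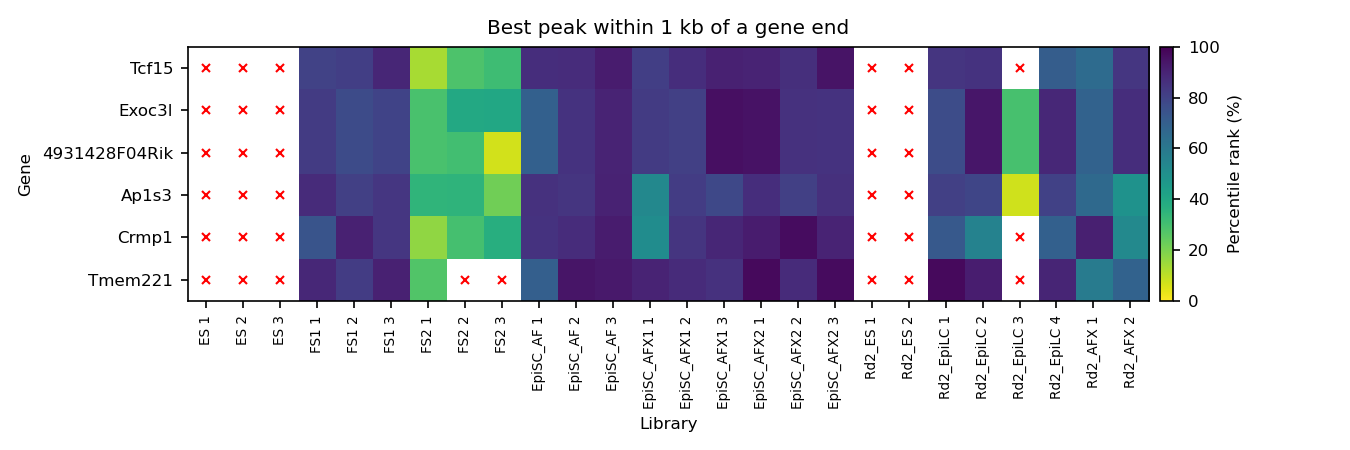
Percentile rank in % (colour) of the best peak within 1 kb of a gene end for Tcf15 and the 5 genes most like it (rows) in 26 libraries (columns); white cells with a cross have no peak. The 6 rows are dark in FS1 and most EpiSC libraries, lighter or empty in FS2 and empty in every ES and Rd2_ES library.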

How the data were processed

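Per the submitters' processing notes, the tools were Trim Galore, Bowtie, Picard and MACS2 and the build was mm10; versions and settings are not given in the sources used here. The authors deposited 1 broadPeak list for each library, so peaks were called per sample. In these lists the fold enrichment (a ratio), the −log10 p, the −log10 q and the score are the authors' values for each peak; the score was not used. They served only to describe, rank or filter peaks within a list.

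With Python 3.11.15, pandas 2.3.3 and numpy 2.4.6, peaks of all lists in the window were merged where they overlapped or touched, and a region was present in a library at 1 bp of overlap. Gene spans and promoters came from RefSeq tables of GRCm38.p6. No read depth was known, and no test was made, so no p-value is given. Merging and calling were tested on simulated peaks. The members and gene lists were chosen with earlier results of these data known. The text names the genes in the window, listed genes called for FS, and the 5 genes most like Tcf15; others were named after their values were seen. Alternatives were list length, ranking by fold, a −log10 q of at least 5, flanks of 20 and 100 kb, 5 kb to a gene end, an overlap of 50%, leaving out each library and, added after seeing the data, FS1 or FS2 alone.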

Additional observations from a re-analysis of the deposited data

How the results depend on the processing

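The excess of window peaks over ES was positive under every alternative run, but the gene was picked for a peak in FS and not ES. With the q limit and with flanks of 20 kb every ES library held 0 peaks, so the excess could not be negative there. For FS it was 3.17 with the lists as deposited, 0.333 at equal list length, 0.833 at equal length ranked by fold, 0.833 with a −log10 q of at least 5, 1.33 with flanks of 20 kb and 5.33 with 100 kb. For EpiSC_AFX it was 4.17, then 1, 1.5, 2.33, 2.17 and 7 in that order. For EpiSC_AF it was 3, then 1.67, 2, 2, 1.33 and 6. The FS excess was 4.67 with FS1 alone and 1.67 with FS2 alone. Leaving out 1 library gave 2.8 to 3.6 for FS, 4 to 4.4 for EpiSC_AFX and 2.5 to 3.5 for EpiSC_AF. EpiSC_AF minus EpiSC_AFX, -1.17 as deposited, was 0.667 at equal length and 0.5 ranked by fold; the groups overlapped as deposited. FS minus EpiSC_AF, 0.167 with overlapping groups, was -1.33 at equal length, -1.17 ranked by fold, -1.17 with the q limit and -0.667 with 100 kb, and ran from -0.333 to 0.667 without 1 library.

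Of the window regions, FS libraries alone held 1 against ES as deposited, 0 at equal length, 0 ranked by fold and 0 with the q limit. The count was 2 with FS1 alone and 1 with FS2 alone, alternatives chosen after seeing the data. No share over all regions was taken for a line alone. Without 1 library the FS count was 1 to 2, the 2 coming without the first FS2 library. For EpiSC_AFX the 3 became 1, 1 and 1 under those 3 limits (3 to 4 without 1 library). For EpiSC_AF the 2 became 1, 1 and 1 (2 to 3). With the q limit that was 1 of 4 window regions for EpiSC_AFX, against 15.3% of all 15264 regions. For EpiSC_AF it was 1 of 3, against 33.4% of 9551, and for FS 0 of 3, against 1.14% of 12403. Ranked by fold, the shares of all regions were 1.58% for FS, 2.18% for EpiSC_AFX and 5.17% for EpiSC_AF. Over all regions the FS counts as deposited, at equal length, ranked by fold and with the q limit were 1401, 373, 362 and 141. As deposited the count was 7812 with FS1 alone and 1543 with FS2 alone. In the same order of settings the counts were 4222, 534, 474 and 2338 for EpiSC_AFX. For EpiSC_AF they were 4540, 1026, 984 and 3187. Of the 35 listed genes, 0 were called for FS within 1 kb (3.41% of all genes were). Within 5 kb 4 were (Id3, Meox1, Otx2, Dnmt3b), against 4.29% of all genes. The cause of these shifts was not tested, beyond the shorter lists. Of 48 library counts for single regions under other list lengths, rankings and the q limit, 28 stayed within 1.5 times the count as deposited and 20 did not. The overlap of 50% could change nothing, since every peak lies inside its merged region. No paired analysis was possible because no result comes from a test. The unknown depth limits every absence, above all in the ES and Rd2_ES lists.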
